A study of Saccharomyces cerevisiae with 5 samples.

Results

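SNARE proteins and the factors that bring membranes together before fusion are encoded by 33 of the genes examined here. They were compared between wild type yeast and yeast without VTS1 on 5 single-colour arrays. The members were chosen by name, as SNAREs, as subunits of the HOPS and CORVET tethers and as their Rab, Sec1/Munc18, effector and recycling partners, and the rule used no measured value, although earlier results of these data were known when the list was made. All 33 had a probe set with 1 gene symbol in the platform annotation, out of 5656 genes with such a probe set. The brightest probe set stood for each gene. SNC1 was the one member with a second probe set.

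The wild type group (n = 2) was BMA64, a laboratory strain related to W303, and the other group (n = 3) was the same strain with VTS1 deleted. Per the labels, both were grown at 30 degrees in SD medium and harvested at an OD600 of 0.4. The molecule is given as total RNA and the label as biotin. The labels do not give the marker used for the deletion, or say whether arrays came from separate cultures or clones, so the p-values reflect array-to-array spread alone, part or all of which may be technical. The title of deletion replicate 3 does not name the deletion, while its source label does, and all 5 samples, the wild type included, carry 1 treatment entry that names VTS1 and a transfection.

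In membrane fusion, Q-type SNAREs (Qa, Qb and Qc) and an R-type SNARE on opposing membranes zip into a bundle of helices. Tethers and Rab GTPases bring the membranes together first, Sec1/Munc18 proteins guide assembly, and Sec18 with Sec17 takes the spent complexes apart. Each compartment uses its own combination, and Vti1 is shared by several on the route from the Golgi to the vacuole, the lytic organelle of yeast. VTS1 was named as a suppressor of a vti1 mutant. Vts1 also binds RNA hairpins through its SAM domain and promotes the decay of such mRNAs. The comparison therefore asks whether mRNA levels of VTI1 and its partners differ in cells without Vts1.

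VTS1 (YOR359W) itself had a signal of 4952 and 5080 on the wild type arrays and of 19, 17.8 and 55 on the deletion arrays. The deletion arrays all lay below the background level of their array, taken as the 95th percentile of the 28 controls that yeast RNA does not match, which ran from 98 to 166.7 over the 5 arrays. STE2, a receptor gene of a-cells, had no call (log2 change 0.04 ± 0.12, SE, limma adjusted p = 0.893). STE3, its counterpart in alpha-cells, was too dim to test, at 194.0 and 190.9 on average. None of the other a-cell genes checked had a call. Their changes were -0.11 ± 0.16 (STE6), -0.29 ± 0.12 (BAR1), 0.36 ± 0.12 (MFA1) and 0.30 ± 0.12 (MFA2). For BAR1 the deletion arrays were all lower, and for MFA1 and MFA2 all higher. Of the other alpha-cell genes, also too dim, MF(ALPHA)1 averaged 294.2 in wild type cells and 134.4 in the deletion strain, without overlap. MF(ALPHA)2 averaged 124.6 and 118.4. Log2 signals correlated at 0.981 to 0.990 within groups and at 0.960 to 0.969 between them, across probe sets that are not independent replicates. For actin, the 3′ probe set over the 5′ one gave 1.34 and 1.17 in wild type cells and 1.51, 1.35 and 1.25 in the deletion strain.

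None of the SNARE and tether genes differed past the threshold between deletion and wild type. Of 29 members bright enough to test (mean signal at least 250.3), 0 were called higher and 0 lower by limma at an adjusted p of 0.05. Of the 6294 probe sets tested, 7.44% were called, 4.39% higher and 3.05% lower. With 1 probe set per gene, as for the members, 7.72% of the 4950 genes tested were called, 4.97% higher and 2.75% lower. The lowest adjusted p among the members was 0.202, for YKT6. At an unadjusted p of 0.05, 1 member passed, against 21.4% of all probe sets. The log2 changes, deletion minus wild type, ran from -0.29 to 0.26 with a median of -0.03, which is also the median of the 4950 genes tested. None of the 29 was past 1.5-fold in either direction, where 8.69% of the genes tested were. In all, 13 members had a change above 0 and 16 below it.

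**Figure D1:**
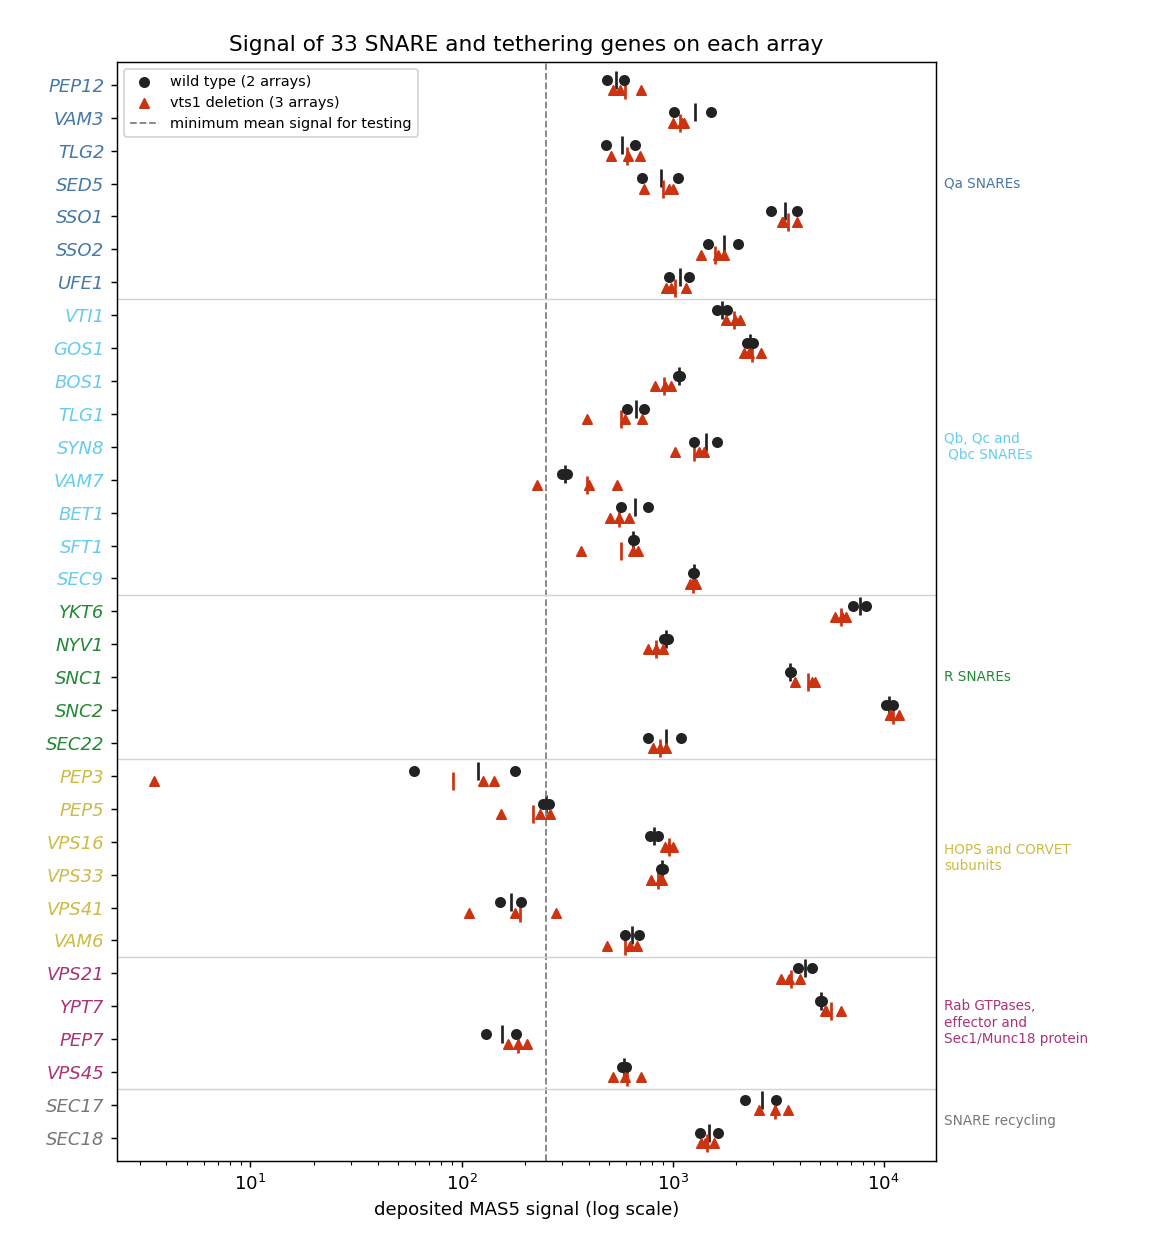
Deposited signal (horizontal log axis) of each of the 33 members on the 2 wild type arrays (black circles) and the 3 deletion arrays (red triangles), grouped by role. Vertical ticks are group means and the dashed line is the minimum mean signal of 250.3. The groups overlapped for 23 of the 29 members tested, and PEP3, PEP5, VPS41 and PEP7 lay under the minimum. Of all probe sets tested, 16.8% did not overlap and were higher in the deletion, and 21.7% did not overlap and were lower.

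The 95% interval of each change gives the sizes that these arrays leave possible. For 28 of the 29 members the whole interval lay inside a 2-fold change in either direction; VAM7, the dimmest member tested, was the exception. For 10 of the 29 the interval reached past 1.5-fold, so a change of that size lay within it. Standard errors of the log2 change ran from 0.12 for YKT6 and SNC2 to 0.35 for VAM7. In simulated data with noise drawn from the variance model of the fit, 22.8% of probe sets changed by 1.5-fold were called. The share was 73.4% of those changed by 2-fold and 0% of those changed by 1.2-fold. In each simulation 200 of 6294 probe sets were changed. These shares depend on that number, so they are not the detection rates of the real comparison. The 2 wild type arrays differed from each other by more than the groups did for 17 of the 29 members (58.6%), and for 48.1% of all genes tested. A gap between single arrays varies more than a difference of group means at equal noise. A larger gap is therefore common without any change, and these shares do not show unusual wild type spread.

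**Figure D2:**
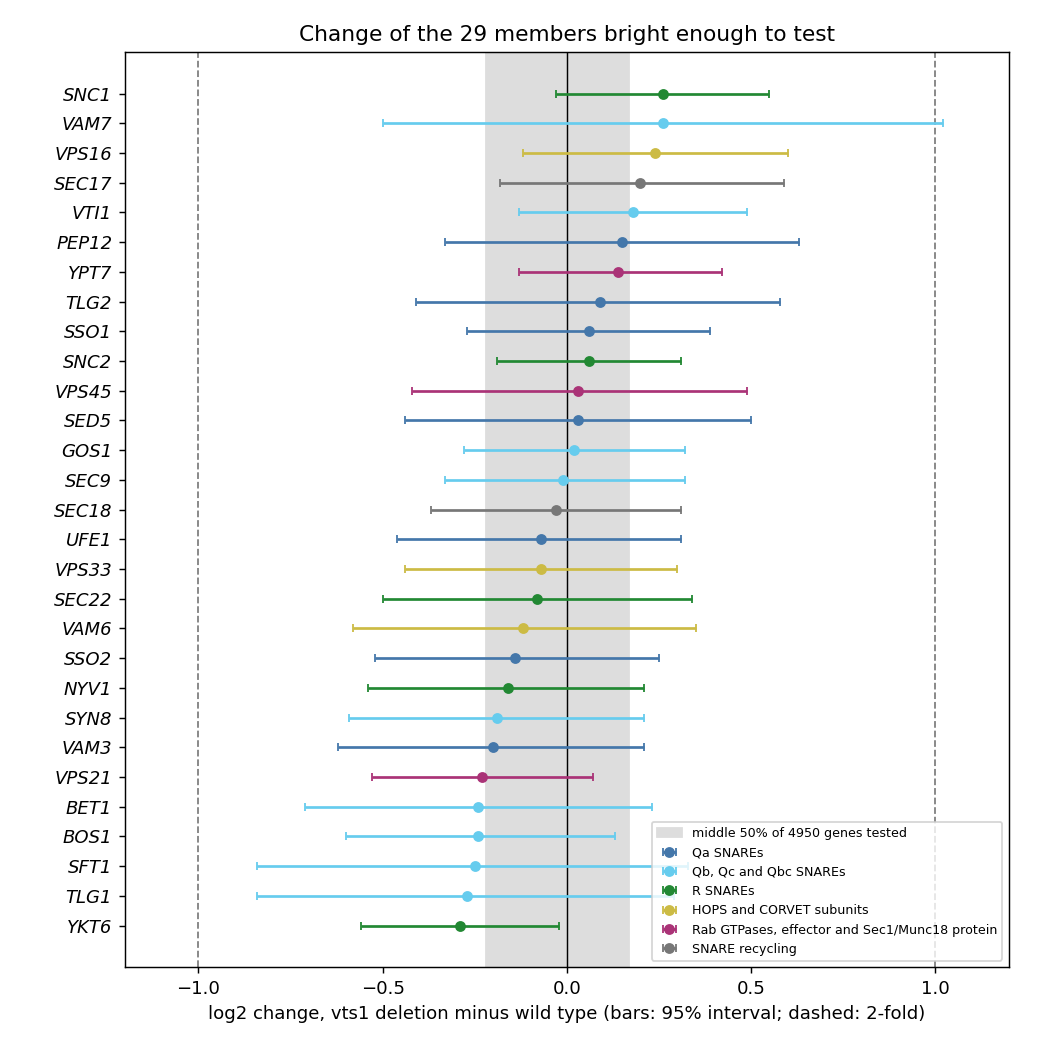
Log2 change, deletion minus wild type, of the 29 members tested (points, coloured by role) with the 95% interval of the fit (bars). The grey band is the middle 50% of all genes tested, from -0.22 to 0.17, and dashed lines mark 2-fold. The interval of YKT6 alone leaves out 0, and that of VAM7 alone crosses the 2-fold line.

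VTI1 (YMR197C) encodes the Qb SNARE that gave VTS1 its name. Its signal was 1621 and 1809 in wild type cells and 1789.7, 2082 and 1966 in the deletion strain. The ranges overlapped, since deletion replicate 1 lay just under wild type replicate 2. The log2 change was 0.18 ± 0.14 (SE, n = 3 against 2; limma adjusted p = 0.515). On the linear scale this is 1.13-fold, with a 95% interval from 0.913 to 1.41, so a rise above 1.41-fold and a drop below 0.913-fold lie outside the interval. With any 1 array left out, the change stayed between 0.10 and 0.26 and had no call.

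The other SNAREs of vacuole fusion are Vam3 (Qa), Vam7 (Qc), Nyv1 (R) and Ykt6 (R), which pair with Vti1. VAM3 (YOR106W) had signals of 1016 and 1527 in wild type cells and 1105, 1138 and 1004 in the deletion strain. The wild type arrays stood further apart than the 3 deletion arrays, and the log2 change was -0.20 ± 0.19. Without wild type replicate 1 it was -0.50, and without wild type replicate 2 it was 0.09, with no call in either case. VAM7 (YGL212W), whose protein carries a PX domain that binds a membrane lipid, had signals of 317 and 299 against 547, 228 and 403. The deletion arrays lay on both sides of the wild type, and the change was 0.26 ± 0.35, with an interval from -0.50 to 1.02. Leaving out deletion replicate 2 moved it to 0.61 and leaving out deletion replicate 1 to -0.02, again without a call.

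NYV1 (YLR093C) encodes the R SNARE found mainly on the vacuole. Its signals were 952 and 914 in wild type cells and 905, 767 and 833 in the deletion strain. All 3 deletion arrays were below both wild type arrays, by a margin of less than 10 signal units at the nearest pair, and the log2 change of -0.16 ± 0.17 had no call (adjusted p = 0.637). YKT6 (YKL196C) encodes a lipid-anchored R SNARE that acts at the Golgi, the endosome and the vacuole. Its signals of 8214 and 7157 in the wild type stood above those of 5870.1, 6652 and 6336 in the deletion strain. The change was -0.29 ± 0.12, or 0.819-fold with an interval from 0.680 to 0.986, at an unadjusted p of 0.0372 (limma) and an adjusted p of 0.202. It was the lowest value among the members, and with each array left out it stayed between -0.39 and -0.19.

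At the endosome and the trans-Golgi network, the Qa SNAREs Pep12 and Tlg2 act with Vti1 and with the Qc SNAREs Syn8 and Tlg1. PEP12 (YOR036W) had signals of 487 and 587 against 521, 566 and 706, a log2 change of 0.15 ± 0.22. TLG2 (YOL018C) had 667 and 483 against 509, 615 and 697, a change of 0.09 ± 0.23. In both genes the groups overlapped, with the lowest value on a wild type array and the highest on a deletion array. SYN8 (YAL014C) had 1259 and 1616 against 1029, 1335 and 1416, a change of -0.19 ± 0.18. TLG1 (YDR468C) had 731 and 606 against 596, 392 and 715, a change of -0.27 ± 0.26. Deletion replicate 2 was the lowest of the TLG1 arrays, and without it the change was -0.03. The adjusted p of these genes ran from 0.593 for TLG1 to 0.867 for TLG2.

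The SNAREs of traffic between the endoplasmic reticulum (ER) and the Golgi are Sed5 (Qa), Bos1 (Qb), Bet1 (Qc) and Sec22 (R), with Gos1 (Qb) and Sft1 (Qc) within the Golgi and Ufe1 (Qa) at the ER. BOS1 (YLR078C) had signals of 1059.7 and 1079 in wild type cells and of 822, 984 and 924 in the deletion strain. These groups did not overlap, and the change was -0.24 ± 0.17 (adjusted p = 0.459). BET1 (YIL004C), at 761 and 571 against 556, 505 and 618, had a change of -0.24 ± 0.21, and its groups overlapped. SFT1 (YKL006C-A) had almost equal wild type signals, 649 and 654, and 368, 651 and 683 in the deletion strain. Deletion replicate 1 alone was low, and without it the change went from -0.25 ± 0.27 to 0.03.

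The remaining genes of this route lay close to 0. GOS1 (YHL031C), with signals between 2185 and 2617 on the 5 arrays, had a change of 0.02 ± 0.14. SED5 (YLR026C) had 714 and 1055 in wild type cells and 1000.1, 732 and 959 in the deletion strain, a change of 0.03 ± 0.22. SEC22 (YLR268W) and UFE1 (YOR075W) had changes of -0.08 ± 0.19 and -0.07 ± 0.18. In all 4 genes the groups overlapped, with adjusted p-values of 0.851 to 0.961.

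Secretory vesicles fuse with the plasma membrane through Sso1 or Sso2 (Qa), Sec9 (which supplies the Qb and Qc helices) and Snc1 or Snc2 (R); the Sso and Snc genes are paralog pairs whose probe sets may share some signal. SNC1 (YAL030W) had signals of 3637 and 3596 in wild type cells and of 3799, 4717 and 4554 in the deletion strain. All deletion arrays were above both wild type arrays, and the log2 change was 0.26 ± 0.13, with an interval from 0.980-fold to 1.47-fold (adjusted p = 0.291). The second probe set of SNC1 gave 1404 and 1946 against 1506, 1993 and 1926, which overlapped, and a change of 0.12 ± 0.18. SNC2 (YOR327C) had signals of 10274 and 11023 against 10729.6, 10716 and 11790.3, a change of 0.06 ± 0.12 with an interval from -0.19 to 0.31.

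SSO1 (YPL232W) and SSO2 (YMR183C) had changes of 0.06 ± 0.15 and -0.14 ± 0.18, and each had wild type arrays that stood far apart, 3878 and 2916 for SSO1 and 1465 and 2039.8 for SSO2. SEC9 (YGR009C) was the steadiest of the members, with signals of 1249.8 and 1263 in wild type cells and 1296, 1211 and 1249.8 in the deletion strain. Its change was -0.01 ± 0.15, with an interval from -0.33 to 0.32. Whether the paralogs of a pair moved differently was asked of the log2 ratio on each array. The SNC1 to SNC2 ratio was higher by 0.21 in the deletion strain (SD 0.08 in the wild type, n = 2, and 0.16 in the deletion, n = 3; two-sided exact permutation p = 0.2). The SSO1 to SSO2 ratio was higher by 0.19 (SD 0.63 and 0.13; exact permutation p = 0.8). Adjusted over the 2 pairs these are 0.4 and 0.8. With 10 ways to split the arrays, 0.1 is the smallest p possible, so this test could not pass 0.05.

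The HOPS and CORVET tethers share the core subunits Pep3, Pep5, Vps16 and Vps33, the last a Sec1/Munc18 protein, and Vps41 and Vam6 belong to HOPS alone. VPS16 (YPL045W) had signals of 779.6 and 850 in wild type cells and of 920.4, 965 and 1002 in the deletion strain. The deletion arrays were all higher, and the change was 0.24 ± 0.17 (adjusted p = 0.449). VPS33 (YLR396C) had signals of 905 and 879 against 892, 791 and 871, a change of -0.07 ± 0.17, and VAM6 (YDL077C) one of -0.12 ± 0.21, both with overlapping groups.

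PEP3, PEP5 and VPS41, 3 of the 6 tether subunits, were too dim to enter the test, as was PEP7, an effector of the endosomal Rab. PEP3 (YLR148W) had signals of 59.7 and 179 in wild type cells and of 126, 3.5 and 142 in the deletion strain, and was above background on 1 array of each group. PEP5 (YMR231W) had 258 and 244 against 154, 262 and 235. VPS41 (YDR080W) had 152 and 192 against 282, 108 and 179, so that deletion replicates 1 and 2 gave its highest and lowest values. Effector gene PEP7 (YDR323C) had 130.9 and 180.3 against 204, 167 and 185. The groups of all 4 overlapped. When the 9275 probe sets were tested without the minimum signal, the 4 genes had no call and the interval of PEP3 ran from -2.12 to 1.92, so both a 2-fold rise and a 2-fold drop of PEP3 mRNA lay within it. The interval was -1.05 to 0.56 for PEP5, -1.25 to 1.34 for VPS41 and -0.32 to 0.85 for PEP7.

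The Rab GTPases of the route are Vps21 at the endosome and Ypt7 at the vacuole. VPS21 (YOR089C) had signals of 4561 and 3933 in wild type cells and of 3256, 3574 and 4035 in the deletion strain, a change of -0.23 ± 0.14. YPT7 (YML001W) had 5120.0 and 5019 against 5330.4, 5261 and 6275, with all deletion arrays higher and a change of 0.14 ± 0.13. VPS45 (YGL095C), the Sec1/Munc18 partner of Tlg2, had a change of 0.03 ± 0.21. The adjusted p-values of these genes were 0.371, 0.558 and 0.944.

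SEC17 and SEC18 serve every fusion step, since they recycle SNAREs of all compartments. SEC17 (YBL050W) had signals of 3104 and 2213 in wild type cells and of 2566, 3057 and 3509 in the deletion strain, a change of 0.20 ± 0.18. Without wild type replicate 1 the change was 0.45 and without wild type replicate 2 it was -0.04. SEC18 (YBR080C) had 1636 and 1346 against 1365, 1418 and 1577, a change of -0.03 ± 0.16.

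By role, the median log2 change was 0.03 for 7 Qa SNAREs, -0.19 for 9 Qb, Qc and Qbc SNAREs, -0.08 for 5 R SNAREs and -0.07 for the 3 tether subunits tested. The groups did not overlap for 6 of the 29 members: SNC1, VPS16 and YPT7 were higher on all deletion arrays, and BOS1, NYV1 and YKT6 lower. That is 10.3% in each direction, against 16.8% higher and 21.7% lower over all probe sets tested. With 10 ways to split the arrays, a share of 0.1 in each direction is expected without any change. The members were near that share. For 5 of these 6 members the change was smaller than or equal to 0.26 in size and the unadjusted p (limma) was above 0.05.

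**Figure D3:**
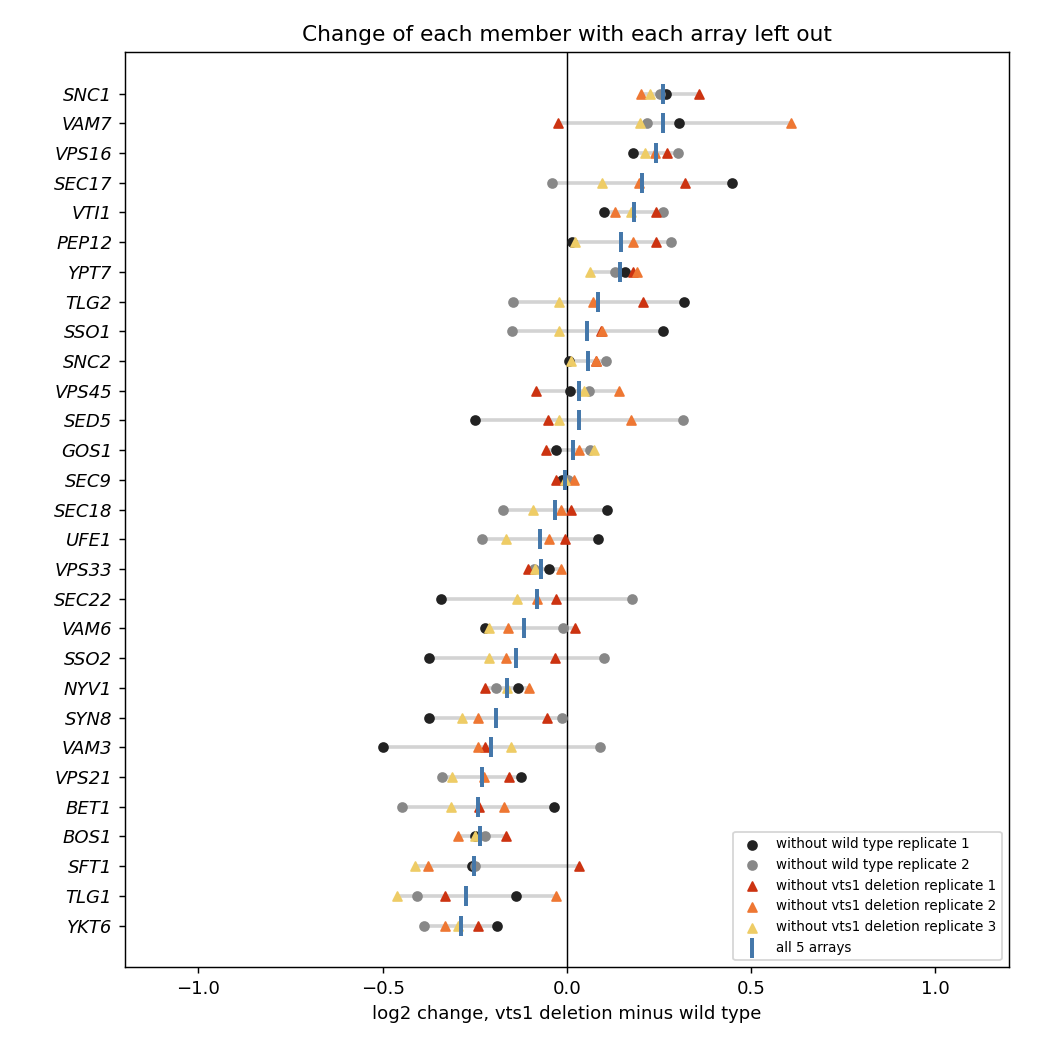
Log2 change, deletion minus wild type, of each tested member with all 5 arrays (blue bars) and with each array left out (circles for wild type arrays, triangles for deletion arrays; grey lines give the range). The change of 15 members took both signs and that of the other 14 kept its sign. Both ends of the range came from leaving out a wild type array for 17 of the 29, VAM3 and SED5 among them. The wild type group has fewer arrays, so leaving out an array moves its mean more at equal spread. The count therefore does not show noisier wild type arrays.

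The wider machinery of vesicle traffic gave the same count. Lists of 140 further genes, of which 139 had a probe set and 131 were bright enough to test, held 0 called higher and 0 called lower by limma, with a median log2 change of -0.02. Over all probe sets tested, 7.44% were called, and with 1 probe set per gene 7.72% of the 4950 genes tested. At an unadjusted p of 0.05, 10 of the 131 passed (7.63%), against 21.4% of all probe sets. By list, the median was 0.10 for 5 other SNARE and Sec1/Munc18 genes, 0.00 for 24 genes of CORVET, Rab GTPases and Rab regulators, -0.07 for 32 genes of other tethers, -0.03 for 33 genes of coats and adaptors and -0.01 for 37 genes of endosomal sorting. Among the other SNAREs, SEC20 (YDR498C), a Qb SNARE of Golgi-to-ER traffic, had 3075 and 2543 against 3238, 3329.8 and 3403. Its change was 0.25 ± 0.13 (limma adjusted p = 0.318). The largest change among the other SNARE and Sec1/Munc18 genes was that of SEC1 (YDR164C). It was 0.50 ± 0.24, with an interval from -0.02 to 1.02 (limma adjusted p = 0.254). For both genes all deletion arrays were higher, and both were named after their values were seen.

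The gene nearest to the threshold was VPS13 (YLL040C), named here after its values were seen, whose large protein moves lipids between membranes that touch each other. Its signals were 2876 and 3684 in wild type cells and 4226, 4606 and 5397 in the deletion strain. All deletion arrays were higher, and the change was 0.54 ± 0.15 (limma adjusted p = 0.0523). VPS13 passed the threshold under 8 of 16 other settings, with adjusted p-values (limma) from 0.0265 to 0.259 over the 16. Its change was 0.36 without wild type replicate 1 (adjusted p = 0.259) and 0.71 without wild type replicate 2 (adjusted p = 0.0273). TRS65 (YGR166W), a TRAPP tether subunit also named after its values were seen, was the only one of the 131 past 1.5-fold, with 1056 and 1354 against 691, 889.7 and 793 and a change of -0.60 ± 0.19 (adjusted p = 0.0784).

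**Figure D4:**
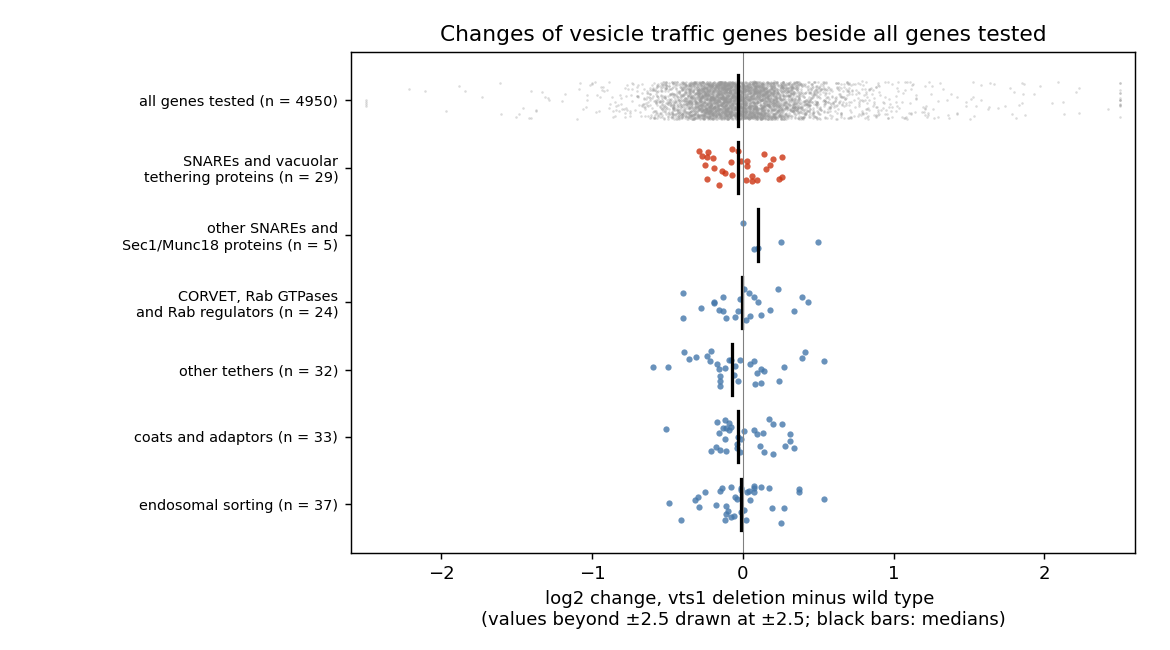
Log2 change, deletion minus wild type, of all 4950 genes tested (grey), the 29 SNARE and tether genes (red) and 5 lists of other traffic genes (blue); each point is 1 gene and black bars are medians. The members lie between -0.29 and 0.26 and the other traffic genes between -0.60 and 0.54, while values of all genes reach past 2.5 in both directions, where they are drawn at the edge.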

How the data were processed

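The values used were the authors' deposited signal intensity values, made with MAS5 per the submitters' processing notes (version and scaling target: not given in the sources used here). Their trimmed means (2% left out at each end) of 2502.47 to 2502.68 show scaling per array, so none was added, and a change in total mRNA per cell would not be seen. Of 9335 probe sets, 60 controls were left out. Signals under 50.1 were raised to it, log2 was taken, and the 6294 probe sets with a mean of at least 250.3 were tested with limma 3.58.1 under R 4.3.3 (linear model, eBayes with trend, group as the only term; 3 residual degrees of freedom, prior 9.02; two-sided, Benjamini-Hochberg over all probe sets tested). The number of arrays limits the precision. The procedure was run on 10 simulated data sets with 200 changed probe sets each, and 5.06% of calls were false. The noise was drawn from the variance model of the fit, without array or culture effects. This share therefore checks the code and is not the error rate on the real arrays. The members and gene lists were chosen with earlier results of these data known. All members are named, VTS1 and the a-cell and alpha-cell genes are checks, and no other traffic gene met the naming rule (past the threshold). SEC1, SEC20, PEP1, TRS65 and VPS13 were named after their values were seen. VPS26 was found under PEP8, and 1 listed gene is not reported here. Alternatives varied the normalization, floor, filter, variance model and array weights, left out each array, added a replicate block or kept plain probe sets alone.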

Additional observations from a re-analysis of the deposited data

How the results depend on the processing

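No member was called, in either direction, under any of the 16 alternatives; the lowest adjusted p was 0.129, for SNC1 without deletion replicate 1. The median change of the members stayed between -0.09 and -0.01. Of 456 member values, 30 changed sign, in 15 genes whose change with all arrays was at most 0.26 in size, and none of these had a call. With quantile normalization SEC9 was at 0.024. With array weights SED5, GOS1, VAM7 and VPS45 were at -0.10, -0.008, -0.070 and -0.072. With arrays left out in turn the ranges were -0.50 to 0.089 for VAM3, -0.15 to 0.32 for TLG2, -0.25 to 0.32 for SED5, -0.15 to 0.26 for SSO1, -0.38 to 0.10 for SSO2, -0.23 to 0.084 for UFE1, -0.056 to 0.074 for GOS1, -0.023 to 0.61 for VAM7, -0.41 to 0.034 for SFT1, -0.03 to 0.019 for SEC9, -0.34 to 0.18 for SEC22, -0.22 to 0.022 for VAM6, -0.084 to 0.14 for VPS45, -0.04 to 0.45 for SEC17 and -0.17 to 0.11 for SEC18; where 1 wild type array is left, it is assumed to vary like the others. The other traffic genes called higher numbered 1, VPS13, with quantile normalization, median scaling, the stricter filter, robust variance, array weights or plain probe sets alone, and 0 to 1 with arrays left out (PEP1 without wild type replicate 1, with a change of 0.65, and VPS13 without wild type replicate 2 or deletion replicate 1). Over all probe sets, 468 calls became 105 with no filter, 294 with no variance trend, 276 to 451 with arrays left out, 527 with quantile normalization, 537 with median scaling and 581 with array weights. The cause was not tested. The replicate numbers 1 and 2 are in both groups, but same-numbered arrays did not deviate together (correlations of -0.066 and -0.074). Each deviation was taken from the group mean, so these correlations are not independent of each other. They cannot show whether same-numbered arrays shared a culture or batch. With a replicate block 218 probe sets were called, no member was, and TLG2, SED5 and SSO1 were at -0.020, -0.021 and -0.020. Only the deletion group has a replicate 3, so the block takes up that array. The member changes were the same as without deletion replicate 3. The 16 alternatives and the 30 sign changes count both settings. PEP3, PEP5, VPS41 and PEP7 were limited by signal near background.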
